A study of Drosophila melanogaster with 8 samples.

Results

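The genes described here are 9 that set or mark blood cell (hemocyte) lineages in Drosophila melanogaster, taken by symbol from the platform annotation: the transcriptional regulators srp, ush, gcm, gcm2, lz and kn and the lineage markers Hml, PPO1 and PPO2. All 9 had a probe set, 10 probe sets in all because kn has 2, out of 11982 genes with a probe set of their own and 18769 probe sets tested. They were measured in S2 cells, an established fly line with features of embryonic hemocytes, on 8 Affymetrix arrays. Cells received either non-specific dsRNA (control) or dsRNA against dSTING, the fly homologue of the cyclic dinucleotide receptor STING, and then, after 3 days, either a dsDNA of 90 nucleotides or a mock transfection, with lysis 24 hours later. This gave 4 groups of 2 arrays, named here control mock and control dsDNA for the non-specific dsRNA, and dSTING RNAi mock and dSTING RNAi dsDNA for the knockdown. All groups, controls included, had therefore been transfected with a dsRNA, and S2 cells are 1 line grown alone. The goal given for the series was the effect of the knockdown in cells given dsDNA.

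Fly blood cells comprise plasmatocytes, which engulf debris and microbes, crystal cells, which carry the enzymes of melanization, and lamellocytes, flat cells that wrap parasites. The GATA factor Serpent (srp) is required to make all of them, and its partner U-shaped (ush), a zinc finger protein of the FOG family, binds Serpent and shifts which genes it activates. Downstream of Serpent, gcm and gcm2 promote the plasmatocyte fate, the Runx factor lozenge (lz) directs crystal cells, and knot (kn), an EBF family factor also called collier, acts in the lymph gland niche and in lamellocyte formation. Hml encodes Hemolectin, a clotting protein of plasmatocytes, and PPO1 and PPO2 encode the prophenoloxidases of crystal cells.

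The deposited values are linear intensities with a floor of 1, at which 19.6% to 24.1% of the tested values of an array lay, and values at the floor have no order. Sting, the target of the dsRNA, was at 48.7 to 53.1 in the 4 control arrays and at 3.45 to 8.05 in the 4 RNAi arrays, a mean ratio of 8.82-fold, which follows the sample titles. In 4 samples the genotype tag names the other dsRNA, and titles were used. A pair of arrays stood apart on the first principal component of the probe sets above a log2 level of 3 (52.1% of their variance): control mock number 2 at 12.2 and dSTING RNAi dsDNA number 2 at -12.5, with the other 6 between -3.05 and 5.55. Nothing in the labels tells whether arrays of a group are separate cultures, and the spread behind each p-value may be technical.

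Of the 9 genes, srp and ush were well above the floor in every array, Hml was dim, and the other 6 never reached an intensity of 2. On the scale of log2(intensity + 1), srp and ush alone had a mean level above 3, which is an intensity of 7; over all probe sets 22.3% lay above that level. The 6 genes that stayed under 2 in all arrays were gcm, gcm2, lz, kn, PPO1 and PPO2. Across all probe sets 64.1% did the same, so a value near the floor was the common state on these arrays. In these bulk samples, fewer cells of a type and less RNA per cell cannot be told apart. The brightness of different probe sets is not comparable, and a probe set at the floor sets no limit on the amount of transcript.

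**Figure D1:**
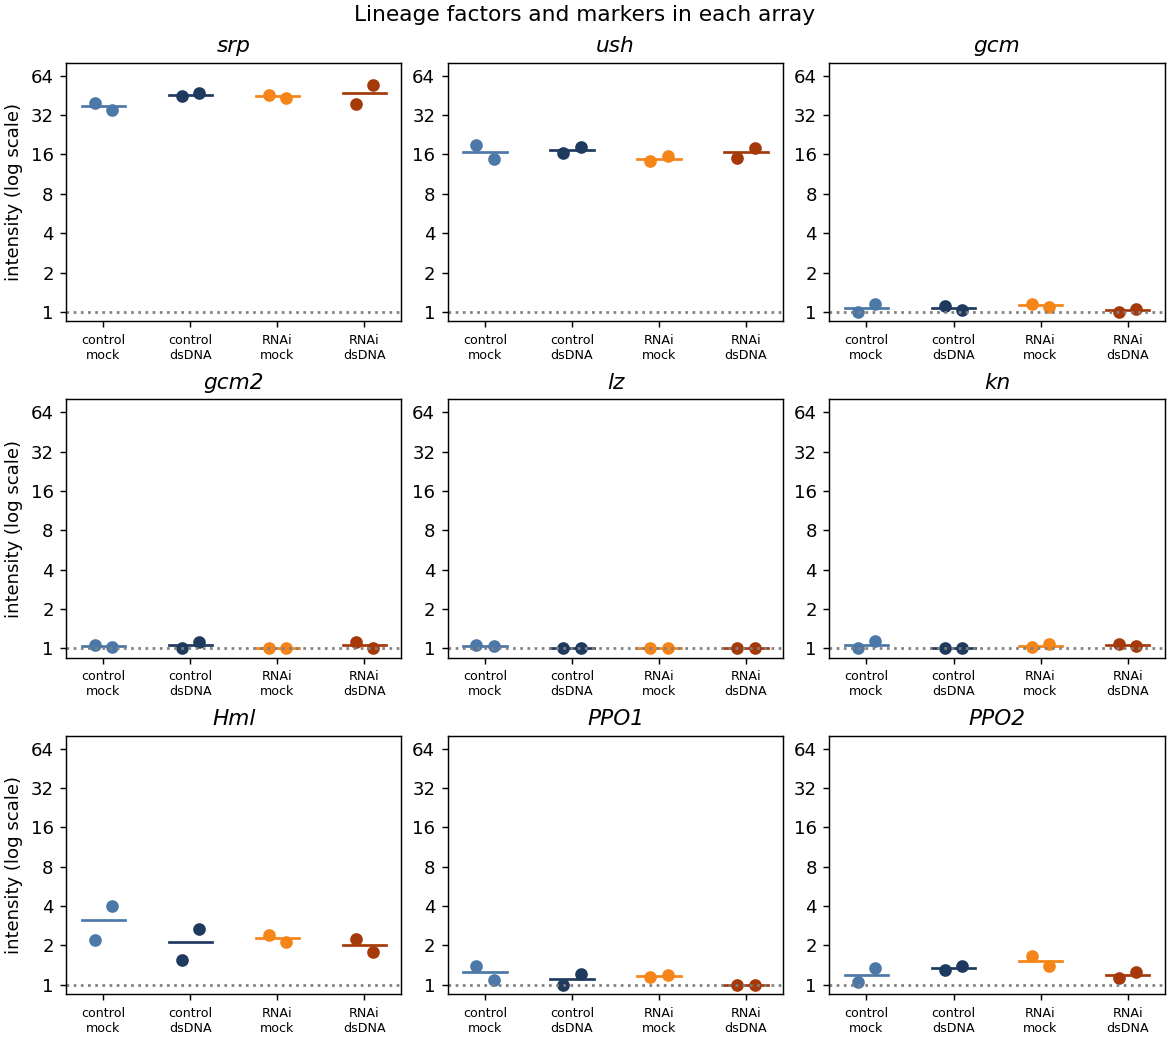
Intensity (log scale) of each of the 9 genes in the 8 arrays, with a point for each array, a short bar for the mean of the 2 arrays of a group and a dotted line at the floor of 1; kn is shown by the brighter of its 2 probe sets. The srp values lie between 34.8 and 54.8 and the ush values between 14.2 and 18.8 in every group, while gcm, gcm2, lz, kn, PPO1 and PPO2 stay below 2.

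The factor at the head of the lineage, srp, was at 39.9 and 34.8 in the control mock arrays, 44.9 and 46.8 in the control dsDNA arrays, 45.5 and 43.5 in the dSTING RNAi mock arrays, and 39.2 and 54.8 in the dSTING RNAi dsDNA arrays. Both control mock arrays were below all control dsDNA and dSTING RNAi mock arrays, whereas 1 dSTING RNAi dsDNA array fell between the control mock arrays and the other was the highest of all. Group means were 37.4 ± 3.64 in control mock, 45.9 ± 1.40 in control dsDNA, 44.5 ± 1.43 in dSTING RNAi mock and 47.0 ± 11.04 in dSTING RNAi dsDNA (SD, n = 2 each). Over all arrays the mean was 43.7 ± 6.01 (SD, n = 8), and the highest array was 1.58 times the lowest.

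The cofactor gene ush was at 18.8 and 14.7 in control mock, 16.4 and 18.4 in control dsDNA, 14.2 and 15.5 in dSTING RNAi mock, and 15.2 and 18.1 in dSTING RNAi dsDNA arrays. No group stood clear of the others, since every group except dSTING RNAi mock held a value above 18 and both mock groups held a value below 15. Group means were 16.8 ± 2.86, 17.4 ± 1.36, 14.8 ± 0.91 and 16.6 ± 2.07 in the same order (SD, n = 2 each). The mean over all arrays was 16.4 ± 1.80 (SD, n = 8), a highest to lowest ratio of 1.33.

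The spread of srp between arrays was wider than that of most bright probe sets. Its residual SD within groups was 0.18 on the log2 scale, above that of 74.8% of the 4189 probe sets with a level above 3, whose median was 0.13. For ush it was 0.16, above 65.7% of them.

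The extremes of srp fell on the arrays that stood apart. Its lowest value, 34.8, was in control mock number 2 and its highest, 54.8, in dSTING RNAi dsDNA number 2; the remaining 6 arrays lay between 39.2 and 46.8, a ratio of 1.19. Hml ran the other way at its upper end, with its highest value, 4.0, in control mock number 2. The highest and lowest ush values, 18.8 and 14.2, were in arrays that did not stand apart, and without the pair its ratio was still 1.33. What sets these arrays apart was not tested.

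**Figure D2:**
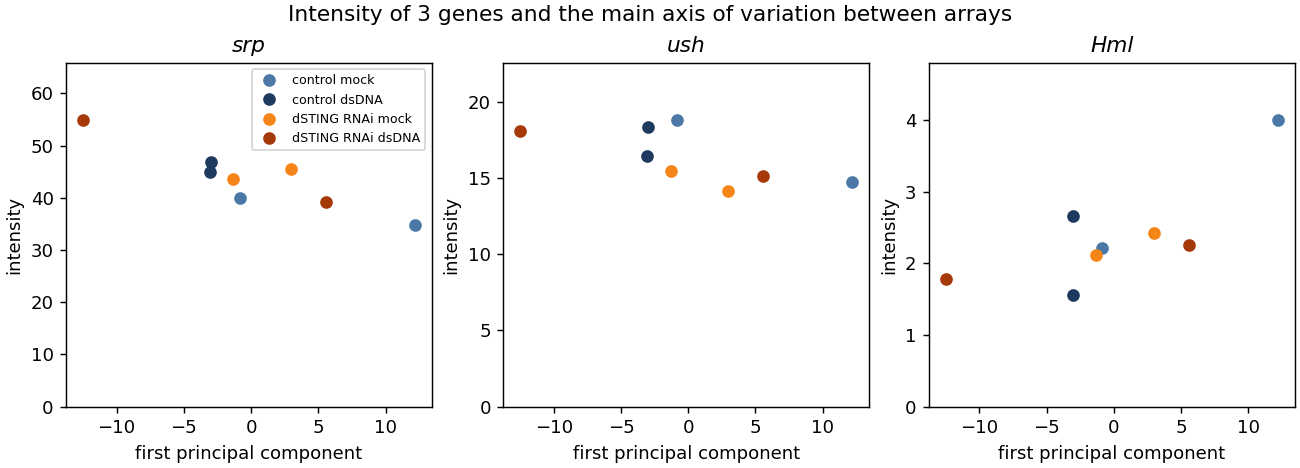
Intensity of srp, ush and Hml (linear axes from 0, a separate scale in each panel) against the position of each array on the first principal component of the bright probe sets, with a point for each array coloured by group. The arrays at -12.5 and 12.2 carry the highest and the lowest srp value, 54.8 and 34.8, and the array at 12.2 carries the highest Hml value.

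No change of srp or ush with the knockdown of dSTING was detected. With dsDNA given, which is the series' own question, the log2 difference (RNAi minus control) of srp was 0.02 (SE 0.16), and the 95% interval, put as a fold on the intensity + 1 scale, ran from 0.763 to 1.34. For ush it was -0.07 (SE 0.14), with an interval of 0.747 to 1.22-fold. Averaged over mock and dsDNA, with 4 arrays on each side, srp had 0.13 (SE 0.11; 0.899 to 1.34-fold) and ush -0.11 (SE 0.10; 0.777 to 1.101-fold). Changes up to the fold at either end of an interval remain possible, so the groups are not shown to be alike. Leaving out the arrays that stood apart leaves 1 array each in control mock and dSTING RNAi dsDNA, so the values that follow are descriptive. The sign for srp then turned, to -0.22 in dsDNA-treated cells and -0.03 on average. For ush the differences became -0.19 and -0.25 without the arrays that stood apart.

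Transfection of dsDNA was likewise without a detected change in these genes. Averaged over both dsRNA treatments, the log2 difference (dsDNA minus mock) was 0.17 (SE 0.11) for srp, from a mean intensity of 40.9 to 46.4, and 0.11 (SE 0.10) for ush, from 15.8 to 17.0. Without the arrays that stood apart these were 0.01 and -0.04. The interaction, which asks whether the dsDNA difference depends on dSTING, was -0.23 (SE 0.23) for srp and 0.09 (SE 0.20) for ush.

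In all 4 comparisons limma called 0 of the 9 genes at an adjusted p of 0.05, where it called 0% of all probe sets. Sting itself was not called over all probe sets (adjusted limma p 0.121 for the mean knockdown and 0.901 in dsDNA-treated cells), so a count of 0 says little here, and the intervals above carry what the arrays can show. At an unadjusted limma p under 0.05 the count was again 0 of 9 in each. The share of all probe sets was 4.51% for the knockdown in dsDNA-treated cells, 4.76% for the mean knockdown, 5.38% for dsDNA and 4.19% for the interaction. The median log2 difference of the 9 genes was -0.02 for the knockdown in dsDNA-treated cells, -0.01 for the mean knockdown, -0.02 for dsDNA and 0.02 for the interaction, and that of all probe sets was 0.00 in each. No gene of the 9 had RNAi and control arrays that did not overlap (2.31% of all probe sets did), nor dsDNA and mock arrays that did not overlap (2.45%). At shares this low, counts of 0 among 9 genes do not set these genes apart from all probe sets.

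**Figure D3:**
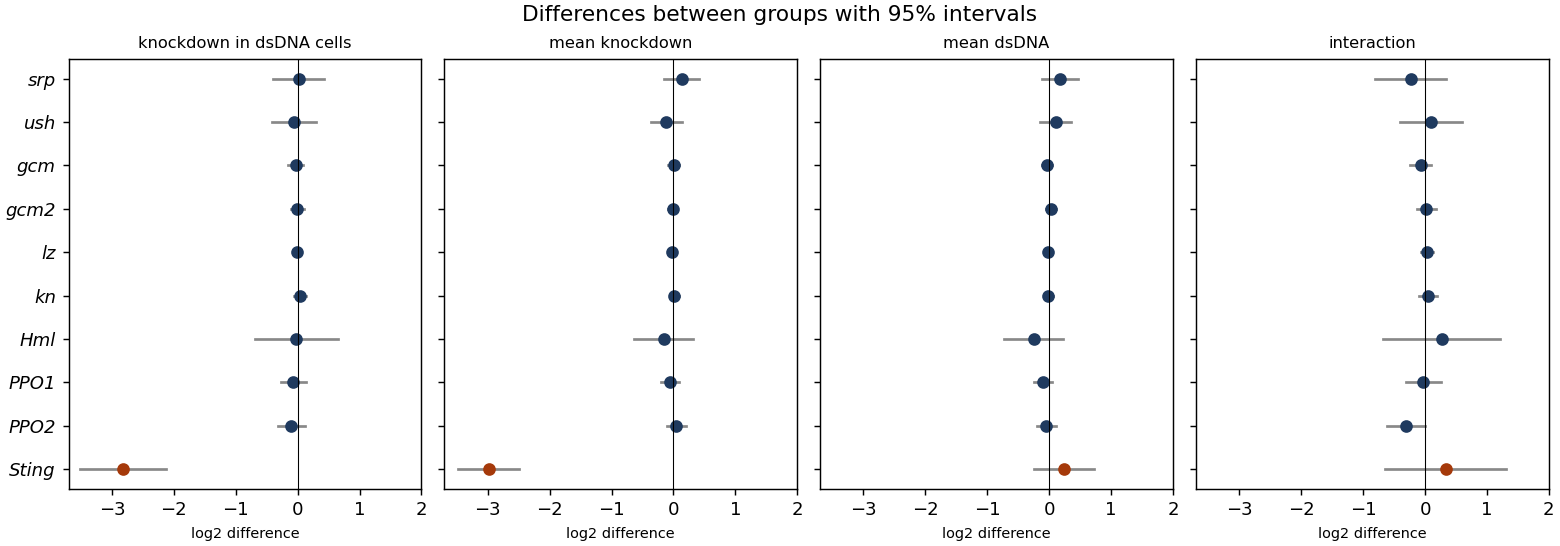
Log2 differences of log2(intensity + 1) for the 9 genes (dark blue) and for Sting (red) in the 4 comparisons, with 95% intervals from limma as grey bars and a line at 0. All intervals of the 9 genes include 0, as for srp at 0.13 (SE 0.11) in the mean knockdown, while Sting lies at -2.82 and -2.99 in the knockdown panels.

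The plasmatocyte-promoting genes gcm and gcm2 lay at or near the floor whatever the treatment. gcm, whose product also switches neural precursors to glia, ranged from 1 to 1.15 and was at the floor in 2 arrays. Its relative gcm2 ranged from 1 to 1.12, at the floor in 3 arrays. The genes lie on arm 2L with 3 genes between them in Release 6 plus ISO1 MT, and neither reached 1.2 in any of the 8 arrays.

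The crystal cell director lz had 5 of 8 arrays at the floor and a highest value of 1.06. All 4 RNAi arrays read 1. The control mock arrays read 1.06 and 1.04 and the control dsDNA arrays 1.01 and 1, differences too close to the floor to be ordered. kn was low by both of its probe sets: the brighter ranged from 1 to 1.14 and the other from 1 to 1.05, with 2 and 6 arrays at the floor.

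Hml gave a dim but measurable signal. It was at 2.22 and 3.99 in control mock, 1.56 and 2.66 in control dsDNA, 2.42 and 2.12 in dSTING RNAi mock, and 2.25 and 1.79 in dSTING RNAi dsDNA arrays. All groups overlapped, and 6 of 8 arrays reached 2. The mean was 2.38 ± 0.74 (SD, n = 8). The log2 difference was -0.02 (SE 0.26) for the knockdown in dsDNA-treated cells, -0.16 (SE 0.19) for the mean knockdown and -0.25 (SE 0.19) for dsDNA. The last of these was -0.04 without the arrays that stood apart, and adding 1 before the log compresses differences at this brightness.

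The prophenoloxidase genes of crystal cells were near the floor. PPO1 was at 1.40 and 1.09 in control mock, 1 and 1.21 in control dsDNA, 1.15 and 1.18 in dSTING RNAi mock, and 1 in both dSTING RNAi dsDNA arrays. PPO2 was at 1.04 and 1.34, 1.30 and 1.40, 1.65 and 1.39, and 1.12 and 1.26 in the same order. Its interaction had the smallest unadjusted limma p of the 9 genes in any comparison, 0.0522, at a log2 value of -0.30 (SE 0.12) and an adjusted p of 1. That rests on intensities from 1.04 to 1.65, close to the floor in every array.

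PPO3, the related prophenoloxidase of lamellocytes, was named after its values were seen. It read 6.70 and 6.94 in control mock, 6.33 and 7.72 in control dsDNA, 5.54 and 7.26 in dSTING RNAi mock, and 7.77 and 6.21 in dSTING RNAi dsDNA arrays. Every array was above 5, and the groups overlapped. Its log2 difference was -0.05 (SE 0.11) for the mean knockdown and 0.07 (SE 0.11) for dsDNA.

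Genes related to these factors, and markers of blood and other cell types, were grouped in 10 lists with 81 genes. Of these, 68 had a probe set of their own and 23 a level above 3. limma called 0 of the 68 in each of the 4 comparisons. At an unadjusted p under 0.05 there were 2 for the knockdown in dsDNA-treated cells, 2 for the mean knockdown, 5 for dsDNA and 3 for the interaction, to be read beside the shares of all probe sets given above (4.51%, 4.76%, 5.38% and 4.19%). The RNAi and control arrays did not overlap for 2 of the 68 (2.94%, beside 2.31% of all probe sets) and the dsDNA and mock arrays for 5 (7.35%, beside 2.45%). The medians over the 68 were 0.00, 0.01, 0.02 and -0.01 on the log2 scale. Of 10 list genes with several probe sets, CtBP and fok had probe sets on both sides of the level of 3, and the brighter one is used.

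Among relatives and partners of the GATA and Runx factors, 3 of 8 measured genes were above the level of 3. pnr, a GATA factor of the heart and dorsal thorax, had a mean intensity of 33.6 with a range of 27.1 to 41.0. GATAd had 12.6 (10.9 to 15.4). The third was Bgb, which encodes a CBF beta subunit that Runx proteins bind, at 9.75 (9.31 to 11.2), whereas the Runx genes RunxA and RunxB, measured beside lz, stayed below 1.6.

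Of 9 measured genes for other regulators of blood cell development, 4 were above the level. CtBP, a corepressor, had 125.7 (109 to 136) and zfh1, a zinc finger and homeobox factor, 98.9 (82.3 to 115). Hand and odd, factors of the heart and lymph gland, were below 1.3 in every array.

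Plasmatocyte markers other than Hml were split. Of 10, 6 were above the level: the collagen IV genes Col4a1 at 218 (189 to 243) and vkg at 103 (85.1 to 114), the peptide precursor gene Nplp2 at 152 (132 to 184), the scavenger receptor gene crq at 23.6 (18.1 to 27.0), the engulfment receptor gene drpr at 14.4 (10.9 to 17.8) and NimC1, which encodes a phagocytosis receptor, at 10.6 (8.64 to 12.9). The remaining 4, He, eater, Pxn and Sr-CI, stayed below 1.5 in every array. The genes listed as plasmatocyte markers were therefore in part above the level and in part near the floor.

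Crystal cell and melanization genes had 2 of 10 measured members above the level: Sp7, a serine protease gene of the melanization cascade, at 29.8 (26.3 to 32.3) and fok at 22.8 (19.7 to 25.8). The other probe set of fok had a mean of 1.03. Lamellocyte markers had 3 of 6, led by the integrin beta gene mys at 59.3 (57.4 to 64.9) and the filamin gene cher at 53.8 (47.2 to 61.0), both of which many cell types use, while atilla, a surface marker of lamellocytes, stayed below 1.4. Lymph gland markers had 2 of 7, Tep4 at 78.4 (71.0 to 77.9 in RNAi and 78.8 to 85.4 in control arrays; adjusted limma p 0.993 for the mean knockdown) and the JAK/STAT receptor gene dome at 20.8 (18.8 to 23.4).

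Markers of fat body, muscle and neurons, cells that S2 cultures should not hold, were near the floor except elav, while glial genes were split. The highest value among 6 fat body genes was 1.22, with Yp1 and Fbp2, for a yolk protein and a fat body protein, at a mean of 1.09 each. Among 5 muscle genes it was 1.47, and the myosin light chain gene Mlc2 and the actin gene Act88F had means of 1.24 and 1.18. Of 5 neuronal genes only elav, which encodes an RNA-binding protein of neurons, reached 2, at 5.14 (5.01 to 6.78 in RNAi and 4.18 to 4.83 in control arrays; adjusted limma p 0.993 for the mean knockdown); brp, for a synaptic protein, had 1.33. Glial genes, included because gcm drives glia, had 3 of 7 above the level, with loco at 26.4 (22.0 to 29.6) and moody at 24.9 (19.2 to 31.6), while the glial factor gene repo, a target of gcm, did not exceed 1.04. Their summed intensity was 62.9 to 86.1 in RNAi arrays and 60.2 to 84.3 in control arrays.

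**Figure D4:**
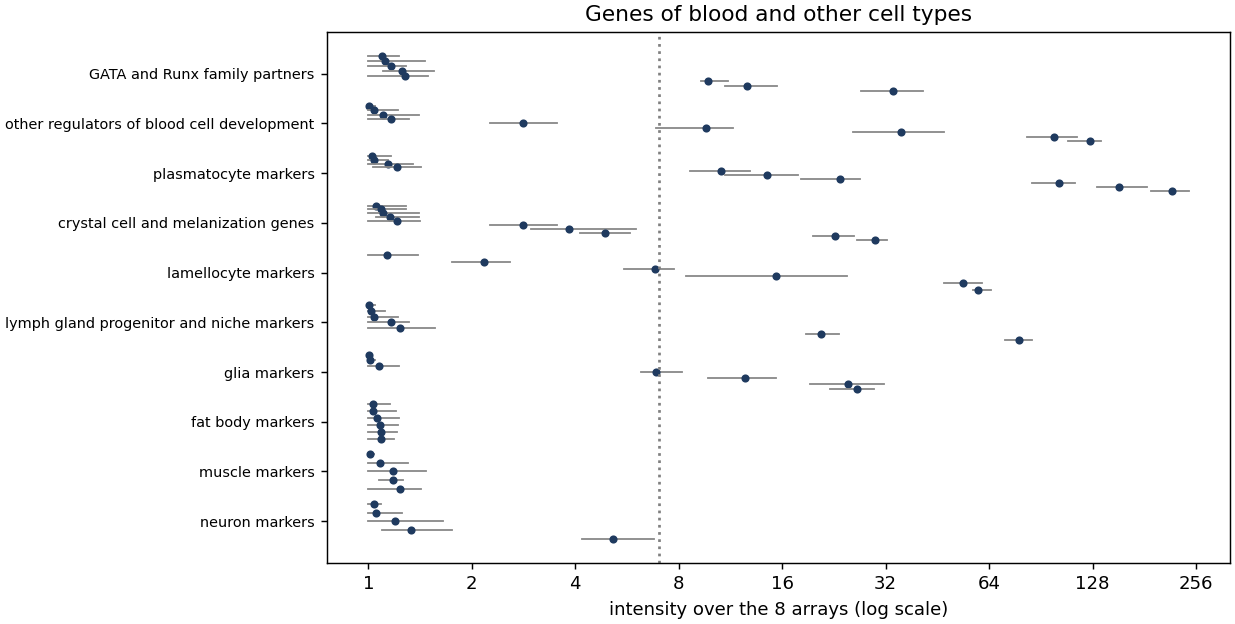
Mean intensity (points) and lowest to highest array (bars) on a log scale for the measured genes of 10 lists, each row of points being a list; the dotted line marks the intensity of 7, and the brightness of different genes is not comparable. Fat body and muscle genes lie near the floor, whereas 6 of 10 plasmatocyte markers and 3 of 8 GATA and Runx relatives lie beyond the line.

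The genes whose pattern over the 8 arrays was most like that of srp, among 3542 others above the level of 3, were Sik3, a salt-inducible kinase gene (Pearson r 0.98), CG7744 (0.98) and Kr-h2 (0.97). For ush they were Pp2B-14D, a calcineurin catalytic subunit gene (0.97), vsg (0.94) and the chloride channel gene ClC-a (0.94). In all, 53 genes had r above 0.9 with srp and 20 with ush. The points share arrays and the main axis of variation. Without the arrays that stood apart the 3 values were 0.91, 0.93 and 0.88 for srp and 0.99, 0.99 and 0.94 for ush.

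Among the 23 list genes above the level, 5 had r above 0.8 with srp (zfh1, pnr, crq, msn and Gli), a share of 21.7% beside 8.39% of all 3542. Over the other 6 arrays 0 of them did, beside 0.932% of all. None of the 5 thus kept an r above 0.8 there. The share of all genes fell too, so 0 of 23 says little about the list genes. For ush 1 did, pnr, both over 8 and over 6 arrays, a share of 4.35% beside 4.43% and 6.66% of all.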

How the data were processed

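Biotin-labelled total RNA was hybridised to 8 arrays, per the labels' protocols. The authors deposited a linear intensity for each of 18952 probe sets on each array; how these were corrected and normalized is not given in the sources used here, and the depositors' floor of 1 was kept. The 183 control probe sets were left out. The platform annotation, updated by gene identifier to Release 6 plus ISO1 MT, gave 13647 probe sets 1 gene, 402 several and 4720 no name; 13544 matched by identifier. Each gene is shown by its brightest probe set.

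Values were taken as log2(intensity + 1). limma 3.58.1 in R 4.3.3 fitted a mean for each of 4 groups over 8 arrays (4 residual degrees of freedom, 5.32 with the prior), with two-sided tests and Benjamini-Hochberg adjustment over all probe sets. Alternatives were a replicate block, quantile normalization, median centring, filters at the median level and at 3, log2(intensity + 16), eBayes with trend and robust options, and leaving out arrays. Members and lists were chosen with earlier results of these data known. Genes named are the members, Sting, the 2 brightest of each list and the 3 most like srp and ush; others were named after their values were seen. Array number limits precision. Coordinates of that assembly served only to count genes between neighbours.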

Additional observations from a re-analysis of the deposited data

How the results depend on the processing

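The count of the 9 genes called stayed at 0 in all 4 comparisons under all 16 alternatives, which says little, since 11 of these called no probe set at all. The filters also did not test all 9 genes, because they remove dim probe sets first. At the filter of 3 only srp and ush remained. Of 188 log2 differences of srp, ush and Hml under an alternative, 173 kept their sign, 15 turned and 0 passed the threshold. Many of the 173 could not turn, so their number is no measure of stability. The replicate block, the filters and the trend and robust options leave every log2 difference as it was. Leaving out a mock array likewise cannot alter the knockdown in dsDNA-treated cells. Without the 2 arrays that stood apart, the knockdown in dsDNA-treated cells turned to -0.22 for srp and 0.088 for Hml, the mean knockdown to -0.033 for srp and 0.055 for Hml, and dsDNA to -0.037 for ush. With 1 array left out at a time, the knockdown in dsDNA-treated cells ran from -0.22 to 0.25 for srp, -0.19 to 0.055 for ush and -0.28 to 0.24 for Hml, and the interaction from -0.47 to 0.0027 for srp, -0.071 to 0.26 for ush and -0.044 to 0.59 for Hml. Over all probe sets, limma called 3 for the knockdown in dsDNA-treated cells with a filter at the median level and 3 with one at 3. For the mean knockdown it called 4 with each filter, 2 with median centring, 1 with log2(intensity + 16) and 3 with trend and robust options. None was one of the 9 genes, and the cause was not tested. Hml was tried under these alternatives after its values were seen; it is absent from the filter at 3.

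No common pairing of the arrays by replicate number was seen: the difference between numbers 1 and 2 correlated between groups at -0.74 to 0.38. The lowest value was between control mock and dSTING RNAi dsDNA, the groups that hold the arrays that stood apart. The highest was between the RNAi groups. These correlations cannot tell whether the arrays were paired, since the arrays that stood apart enter most of them. With the replicate block limma called 0 probe sets in each comparison. The block cannot change a log2 difference here, since every group holds an array of each number. For srp in the mean knockdown the difference thus stayed at 0.13, and the SE went from 0.114 to 0.122.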

Other observations

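Of the 68 list genes, 5 had dsDNA and mock arrays that did not overlap, and they were singled out after their values were seen. NimC1, which encodes a phagocytosis receptor of plasmatocytes, was lower in all 4 dsDNA arrays than in any mock array. It ranged from 8.64 to 9.40 with dsDNA and from 11.1 to 12.9 with mock, a mean of 9.07 ± 0.31 against 12.2 ± 0.79 (SD, n = 4 each) and a ratio of 1.34. The log2 difference was -0.39 (SE 0.05), with an unadjusted limma p of 0.000472 and an adjusted p of 0.894 over all probe sets, and it did not pass with the filter at 3 either (0.810). The SE depended on the setting: it was 0.075 with that filter and 0.093 with trend and robust options. With the latter the unadjusted limma p was 0.00335. With 1 array left out the log2 difference ran from -0.44 to -0.34, and without the 2 arrays that stood apart it was -0.32. As NimC1 was picked for having no overlap, leaving arrays out could not turn the sign. The other plasmatocyte markers were mixed: the log2 difference was 0.18 for Nplp2 and 0.17 for crq but -0.17 for vkg and -0.11 for Col4a1. It was 0.02 for drpr, and the dim Hml, not among the 10 listed, had -0.25 (SE 0.19). The median of the 10, which include NimC1 itself and genes near the floor, was 0.02. The melanization protease gene Sp7 was at 26.3 to 29.8 with dsDNA and 30.0 to 32.3 with mock (log2 difference -0.13, SE 0.04). CG10469, CG17109 and the muscle gene Mlc2, all dim, were higher with dsDNA (0.32, 0.11 and 0.16). None of the 5 passed the threshold (adjusted limma p 0.894 each), and 2.45% of all probe sets had no overlap.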
